A study of Mus musculus with 45 samples.

Results

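The natriuretic peptide genes Nppa and Nppb, the receptor genes Npr1, Npr2 and Npr3, and Corin, which encodes a protease that activates the peptides, were examined across 45 RNA-seq libraries of whole mouse heart. The 6 genes were chosen by symbol, as the peptide hormones that heart muscle makes, their receptors and their activating enzyme, and all 6 were found among the 19432 genes of both deposited tables. Hearts carried a transgene for transient overexpression of ERBB2, a receptor tyrosine kinase, in cardiomyocytes (OE) or were wild type (WT), and had the injury labelled MI (myocardial infarction) or a sham treatment. T1 hearts were collected while ERBB2 was overexpressed, and T2 and T3 hearts 2 and 4 weeks past its end. At each time there were 4 groups, OE MI, OE sham, WT MI and WT sham. A group had 4 libraries, apart from 3 of them with 3 libraries: both MI groups of T2, and OE sham at T3. The promoter of the transgene, the strain, age and sex of the mice, and when the injury fell relative to overexpression and harvest, are not stated in the labels. The labels number the libraries of a group separately and say no more of their origin, so the tests measure how these samples scatter, part of which may be technical. By the expression of sex-linked genes, every group except OE sham T2 held both sexes. The libraries of each such group were thus not all of the same heart.

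Atrial natriuretic peptide (from Nppa) and B-type natriuretic peptide (from Nppb) are made as precursors in heart muscle, and the transmembrane serine protease corin cleaves the atrial precursor into the active hormone. Both hormones bind the receptor encoded by Npr1, whose intracellular part makes cyclic GMP. The receptor of Npr2 makes cyclic GMP mainly after binding the C-type peptide, and that of Npr3 removes peptides from the circulation. In the adult heart Nppa is expressed mostly in the atria, and ventricular muscle expresses Nppa and Nppb during fetal life and under wall stress.

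Levels are the authors' normalized read counts, which are comparable within T1 and within T2 and T3 together but not between these sets, because the authors normalized the 2 tables separately. Each library held 14199741 to 19015856 reads assigned to genes. Erbb2, the check of the labels, lay at 768.8 to 2436.2 in the 8 OE libraries of T1, against 200.7 to 303.1 in the 8 WT libraries of T1. In sham hearts Erbb2 was still called at T2, with 270.6 to 308.0 in OE, against 172.2 to 217.6 in WT (0.48 ± 0.09, limma adjusted p = 0.000259). At T3 it lay at 235.0 to 239.6 in OE sham, against 173.8 to 222.2 in WT sham, and was not called. A fold change is on the scale of log2(normalized count + 1), with its standard error (SE), and a gene is called, and said to have risen or fallen, where limma's adjusted p over all genes tested in a comparison is under 0.05. Under scaling by library totals the median gene shifted by over 0.1 (log2) in 9 comparisons. In sham hearts of T1 the median of OE against WT was then 0.31 in place of 0.01. The changes below are relative to the deposited scaling. The sex of the hearts, read from Xist and a Y-linked gene, was uneven between groups. All 4 OE sham T2 hearts were male, against 3 of 4 WT sham T2 hearts. The OE sham T3 hearts, compared with OE sham T2 below, were 1 male and 2 female. Adding sex to the fit changed no call of the 6 genes.

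Nppa and Nppb lie side by side on mouse chromosome 4 (GRCm38, GENCODE M21), both protein coding and on the plus strand. Nppb spans chr4:147985788-147987205 and Nppa chr4:148000722-148002079, with 13516 bases between them. Npr2 spans chr4:43631935-43651244 (plus strand), Npr1 chr3:90450591-90465866, Npr3 chr15:11839896-11907287 and Corin chr5:72300025-72504473 (all minus strand). Antisense genes overlap Nppa (Gm13054), Npr1 (Gm16048), Npr2 (Gm12473) and Corin (Gm20647), and because the strand setting of the counts is not given, reads of a gene and of its antisense partner cannot be told apart. Gm13054 had 75.5 to 1120 normalized counts at T1 and 3.36 to 314 at T2 and T3, below the lowest Nppa value of the same table.

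The 250 bases before the transcription start of all 6 genes were taken from RefSeq (GRCm38.p6) and searched on both strands for motifs of factors known to act on the peptide genes. The motifs were AAGTG (NKX2-5), TGATAA for GATA factors (or with a final G, TGATAG, a first A, AGATAA, or both changes, AGATAG), for T-box factors AGGTGT, for TEAD factors CATTCC (the M-CAT motif), TGANTCA (AP-1), TATAAA (the TATA box), the CArG box of serum response factor and the MEF2 site. The window of Nppa, chr4:148000472-148000721, is shown because Nppa had the largest single change among the 6 genes, between T3 and T2 in OE sham hearts. Its capitals mark, in order, a T-box match on the minus strand, an NKX2-5 match, a GATA match, another NKX2-5 match and a TATAAA match. The TATAAA match lies 9 to 4 bases before the RefSeq start.
Nppa: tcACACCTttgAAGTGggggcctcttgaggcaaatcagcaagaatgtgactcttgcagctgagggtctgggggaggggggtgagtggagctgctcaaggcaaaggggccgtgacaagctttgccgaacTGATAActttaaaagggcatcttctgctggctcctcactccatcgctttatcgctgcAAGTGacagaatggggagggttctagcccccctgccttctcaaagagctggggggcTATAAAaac
For Nppb a stretch of 27 bases, chr4:147985795-147985821, 105 to 79 bases before the RefSeq start, is shown because it holds the M-CAT match on the minus strand and both GATA matches, in capitals. GENCODE M21 places the start of Nppb 112 bases earlier than RefSeq, so in that annotation the stretch lies in the 5' untranslated region.
Nppb: GGAATGcagcTGATAAatcagAGATAA
Nppb also held a TATA box 31 to 26 bases before the RefSeq start, Npr2 held a T-box match, and Npr1, Npr3 and Corin held none of the motifs. No window of the 6 genes matched the CArG box, the AP-1 motif or the MEF2 site. Of 32817 promoter windows of the same length, 40.7% held AAGTG, 26.6% a GATA match, 12.6% CATTCC, 12.4% TATAAA, 11.8% AGGTGT, 6.75% the AP-1 motif, 1.47% a CArG box and 0.509% a MEF2 site. A match describes the letters of the window and no binding was measured.

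Per kilobase of exon, the peptide genes stood above Corin and Corin above the receptors in WT sham hearts at T1. Nppa had 16020 ± 7280 normalized counts per kb (SD, n = 4), Nppb 3223 ± 2141 and Corin 878 ± 20.0. The receptors followed with 266.5 ± 5.70 for Npr2, 118 ± 7.21 for Npr1 and 67.3 ± 13.3 for Npr3, and the library ranges of these 3 genes did not meet on the per-kilobase scale. Nppa took 0.484% to 0.782% of all gene reads in the 8 OE libraries of T1, where it ranked 9th to 16th of all genes by reads, against 0.0375% to 0.155% in the 8 WT libraries of T1. Nppc, the gene of the C-type peptide, had at most 8.09 normalized counts in any library and was too low to test.

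**Figure D1:**
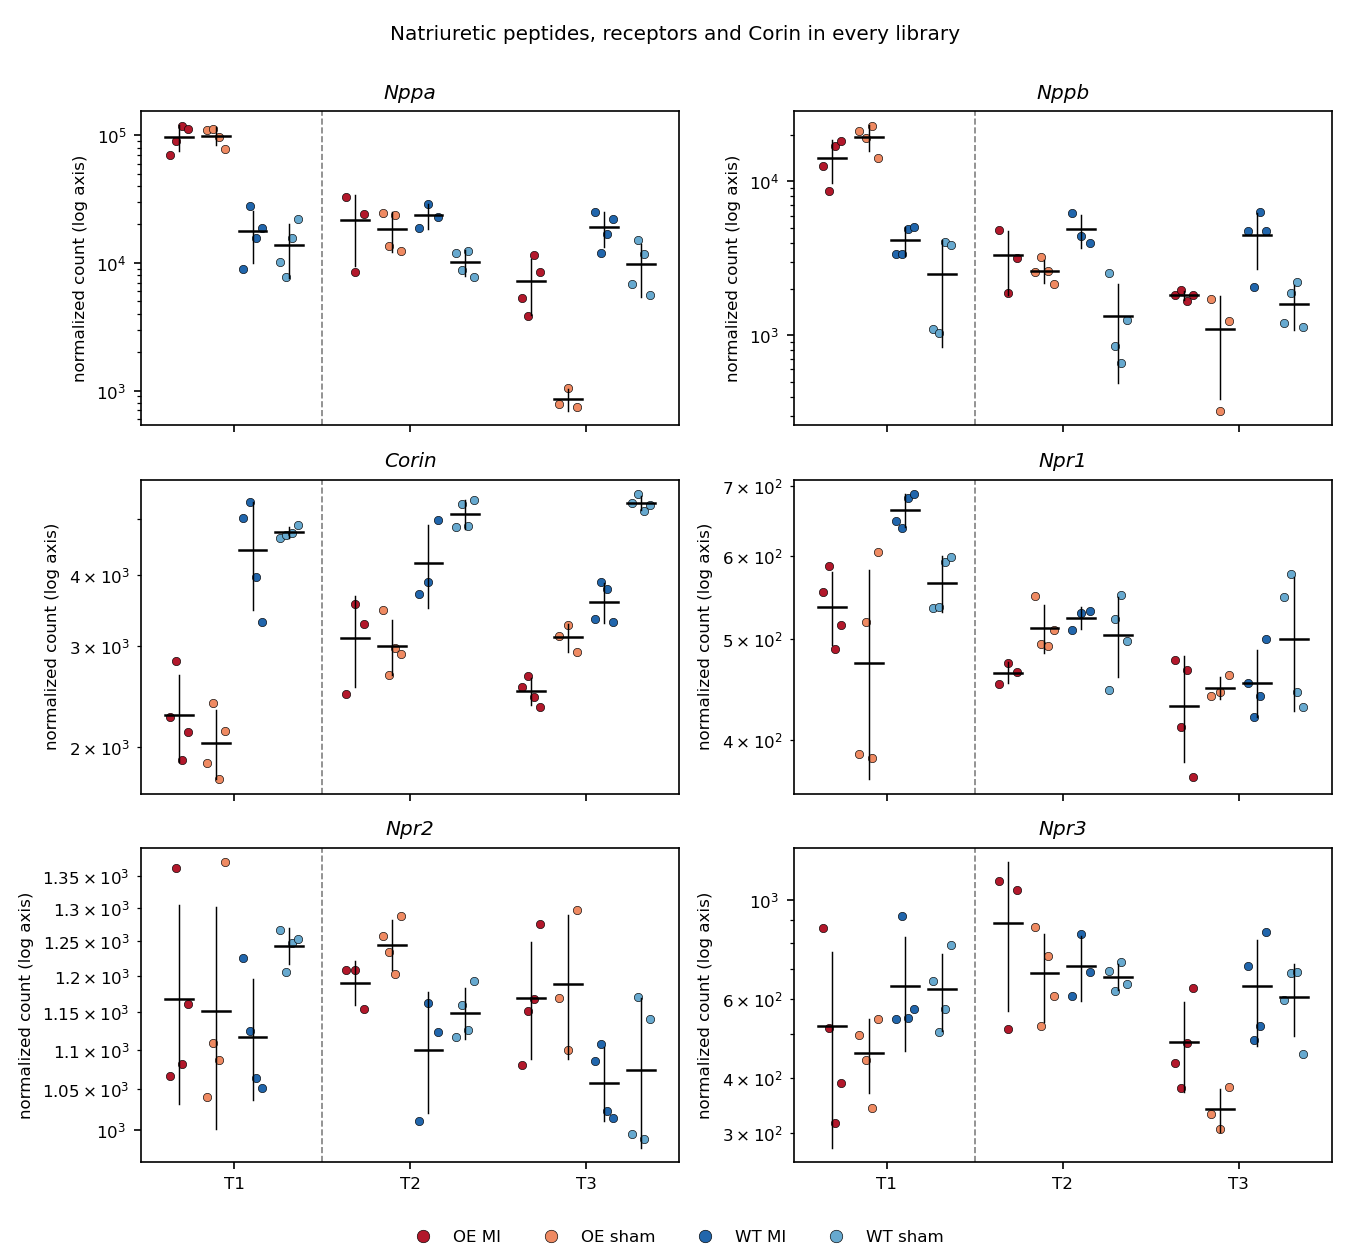
Normalized counts of the 6 genes (log axes) in every library at T1, T2 and T3, with colours for OE MI, OE sham, WT MI and WT sham, the mean (horizontal line) and SD (vertical line); the dashed line parts the 2 tables, whose levels are not comparable. At T1 every OE library lies above every WT library in Nppa and Nppb and below every WT library in Corin, and at T3 the 3 OE sham hearts lie lowest in Nppa, at 738 to 1055.

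During the overexpression both peptide genes rose and Corin fell, in sham and in injured hearts. Nppa had 109792, 112735, 97441 and 77823 normalized counts in OE sham hearts at T1, against 10205, 7719, 15588 and 21917 in WT sham hearts. Every OE heart stood far above the highest WT heart. The log2 fold change was 2.94 ± 0.33 (SE), a 7.68-fold rise (limma adjusted p = 6.18e-06). In injured hearts Nppa had 70067, 90391, 117195 and 112541 in OE, against 8941, 27991, 15687 and 18606 in WT, and the log2 fold change was 2.54 ± 0.33 (limma adjusted p = 6.61e-05). The means of OE MI and OE sham hearts, 97550 ± 21740 and 99450 ± 15870 (SD, n = 4 each), lay within each other's spread.

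Nppb had 21117, 19130, 22911 and 14282 normalized counts in OE sham hearts, against 1102, 1040, 4062 and 3865 in WT sham hearts. The groups did not overlap, and the WT hearts fell into a lower and a higher pair. Nppb rose by 3.21 ± 0.41 on the log2 scale, or 9.25-fold (limma adjusted p = 2.09e-05). In injured hearts it had 12548, 8618, 16919 and 18399 in OE, against 3393, 3395, 4886 and 5044 in WT. Again no OE heart reached down to the WT range, and Nppb rose by 1.72 ± 0.41 (limma adjusted p = 0.00579). The OE effect in MI minus that in sham was -1.49 ± 0.58 for Nppb and was not called (limma adjusted p = 0.431).

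Corin moved the other way. It had 1876, 2386, 1759 and 2138 normalized counts in OE sham hearts at T1, against 4641, 4691, 4733 and 4890 in WT sham hearts. The WT hearts lay close together, and all OE hearts lay well below them. Corin fell by 1.23 on the log2 scale (SE 0.14), to 0.428 of its WT level (limma adjusted p = 6.6e-06). In injured hearts it had 2256, 2828, 1902 and 2124 in OE, against 5015, 5355, 3969 and 3307 in WT, and fell by 0.94 (SE 0.14, limma adjusted p = 0.000195).

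In all, 3 of the 6 genes were called in OE against WT sham at T1, beside 47.3% of the 15375 genes tested. The same 3 genes were called in MI hearts at T1, beside 29.9% of genes. The members' median log2 fold change was -0.20 in sham and -0.12 in MI hearts, against 0.01 for all genes tested in each. Markers of cell types moved in the same comparison. In sham hearts, 5 of 8 cardiomyocyte markers fell and 1 rose, and their summed level was 692160 to 829760 in OE, against 940230 to 1080500 in WT. All 4 ventricular markers fell, summing to 65910 to 91345 in OE, against 171720 to 195980 in WT. Of 8 fibroblast markers 7 rose, summing to 117980 to 145200 in OE, against 26203 to 29959 in WT (all members of these 3 lists passed the filter on low values). Of 8 atrial markers 3 fell and 1 rose, and of 8 macrophage markers 6 rose. In RNA of a whole heart, fewer cells of a type and less RNA per cell cannot be told apart, and the part of these shifts in the changes of Nppa, Nppb and Corin was not tested.

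The receptor genes were not called at T1 with the deposited scaling, and some alternatives called them. Npr1 had 388 to 605 normalized counts in OE sham hearts, against 535 to 598 in WT sham hearts (log2 fold change -0.28 ± 0.12, limma adjusted p = 0.0655), and these groups overlapped. With scaling by library totals the value was 0.025, so no direction is given. In injured hearts Npr1 had 553.8, 587.1, 488.6 and 515.3 in OE, against 648.0, 638.1, 681.2 and 686.9 in WT. These groups did not overlap, yet the log2 fold change of -0.31 ± 0.12 missed the threshold (limma adjusted p = 0.0605). Over 11 alternatives with every library kept, this value ran from -0.31 to -0.040, so its size depends on the processing. For Npr2 the 95% interval of the OE effect ran from -0.31 to 0.07 in sham and from -0.13 to 0.25 in MI hearts. For Npr3, whose libraries were more scattered, it ran from -1.05 to 0.10 and from -0.94 to 0.20. Npr1 was called in sham hearts without OE sham replicate 4 (-0.40, limma adjusted p = 0.00401). In MI hearts it was called without OE MI replicate 2 (limma adjusted p = 0.0456) and with only the groups compared in the fit (limma adjusted p = 0.0199). Npr2 was called in MI hearts with scaling by library totals (0.33, limma adjusted p = 0.0119). Npr3 was called in sham hearts with only the groups compared (limma adjusted p = 0.0389) and in MI hearts without OE MI replicate 1 (-0.65, limma adjusted p = 0.046).

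**Figure D2:**
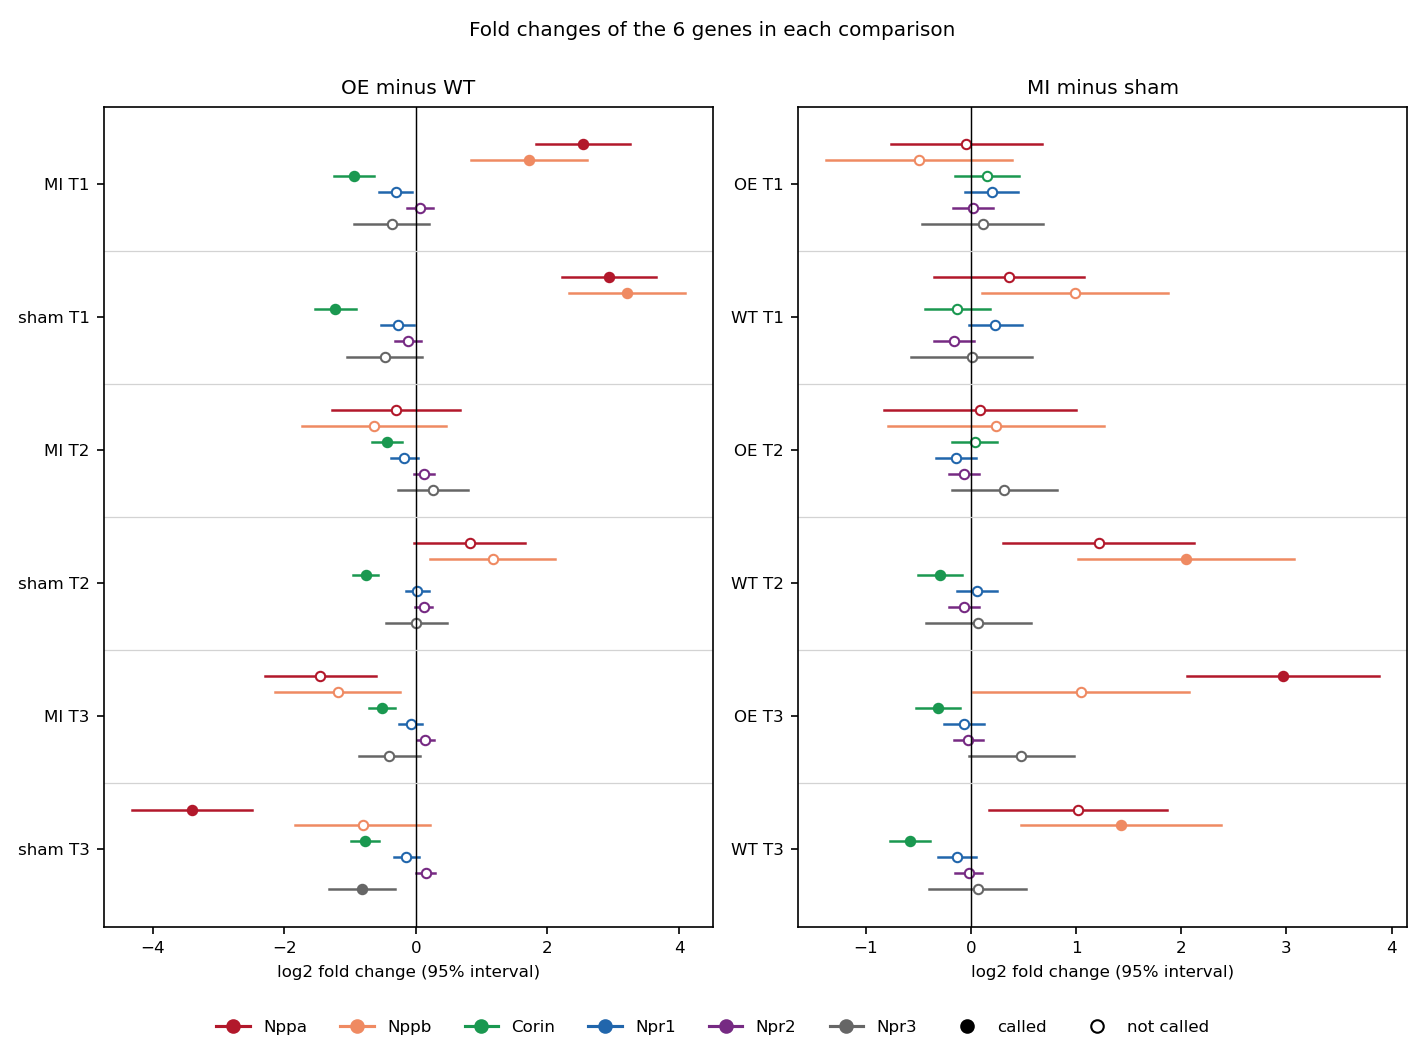
Log2 fold changes of the 6 genes, OE minus WT in MI and in sham hearts (left) and MI minus sham in OE and in WT hearts (right) at each time, with 95% intervals from limma; filled points were called at an adjusted p under 0.05. Corin is called on the lower side in all 6 OE comparisons, and Nppa changes side between T1 (2.94 in sham hearts) and T3 (-3.41).

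Corin was the only one of the 6 genes called in OE against WT at T2, in both injury states. At T2, labelled as past the overexpression, Corin had 3467, 2677, 2982 and 2909 normalized counts in OE sham hearts, against 4838, 5315, 4858 and 5394 in WT sham hearts. The groups stayed apart, and Corin was lower in OE by 0.77 (SE 0.09) on the log2 scale (limma adjusted p = 1.9e-06). It was the 1 member called there, beside 25.4% of the 15533 genes tested. With scaling by library totals 3 members were called, Nppb and Npr2 besides Corin, and the share of all genes called with that scaling is not given. In these sham hearts 7 of 8 fibroblast markers rose, summing to 39615 to 40717 in OE, against 20547 to 22184 in WT. Of 8 cardiomyocyte markers 4 fell and 1 rose, and 2 of 4 ventricular markers fell. Their part in the change of Corin was not tested. In injured hearts Corin had 2480, 3562 and 3276 in OE, against 3705, 3889 and 4985 in WT, with a log2 fold change of -0.44 ± 0.11 (limma adjusted p = 0.039, n = 3 each, 1 member beside 1.56% of genes). This call was lost on leaving out OE MI replicate 1 or 4 or WT MI replicate 3 or 4 (limma adjusted p up to 0.218).

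At T3 Corin had 3126, 3274 and 2930 normalized counts in OE sham hearts, against 5330, 5532, 5171 and 5291 in WT sham hearts. All WT hearts stood above all OE hearts with little scatter in either group, and Corin was at 0.583 of its WT level (log2 fold change -0.78 ± 0.10, limma adjusted p = 1.37e-05). In injured hearts Corin had 2550, 2665, 2446 and 2351 in OE, against 3348, 3878, 3314 and 3772 in WT (-0.51 ± 0.09, limma adjusted p = 0.00206). The 3 sham calls of Corin and those in MI hearts at T1 and T3 held under every alternative tried and with any 1 library left out. The sham effect at T3 minus that at T2 was -0.01 ± 0.14, with a 95% interval from -0.30 to 0.27. At T3 the summed level of the cardiomyocyte markers in sham hearts was 844370 to 905030 in OE, against 870320 to 958460 in WT, ranges that overlap. A sum is weighted to the most abundant markers, and the part of cell content in the change of Corin at T3 was not tested.

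The peptide genes were no longer called at T2. Nppa had 24650, 13572, 23588 and 12401 normalized counts in OE sham hearts, against 11894, 8787, 12484 and 7762 in WT sham hearts. The lower pair of OE hearts met the upper pair of WT hearts, and the log2 fold change was 0.82 ± 0.41 (limma adjusted p = 0.152). Nppb had 2559, 3229, 2606 and 2151 in OE, against 2522, 857, 665 and 1257 in WT, and was at 1.17 ± 0.46 (limma adjusted p = 0.0654). A single WT heart at 2522 made these groups overlap, and without it (WT sham replicate 1) Nppb was called at 1.54 (limma adjusted p = 0.0171), as it was with scaling by library totals at 1.37 (limma adjusted p = 0.027). In injured hearts the values were -0.31 ± 0.47 for Nppa and -0.64 ± 0.53 for Nppb (limma adjusted p = 0.842 and 0.654). Among the receptors Npr1 had 453 to 474 in OE MI hearts, against 509 to 531 in WT MI hearts, without overlap and without a call (-0.17 ± 0.10, limma adjusted p = 0.466). Npr2 did not overlap between OE and WT sham hearts at T2 and was not called with the deposited scaling (0.12 ± 0.06, limma adjusted p = 0.19), but was with scaling by library totals (0.32, limma adjusted p = 0.000877).

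At T3 the order of the Nppa levels was turned round. Nppa had 791, 1055 and 738 normalized counts in OE sham hearts, against 6805, 15024, 11678 and 5566 in WT sham hearts. The 3 OE hearts lay far below all other libraries of T2 and T3, the lowest of these being an OE MI T3 heart at 3839. Nppa fell by 3.41 on the log2 scale (SE 0.44), to 0.0943 of the WT level (limma adjusted p = 3.54e-05). In these hearts Nppa ranked 2225th to 3299th of all genes by reads, against 97th to 304th in WT sham hearts. Nppb had 1717, 322 and 1234 in OE sham hearts, against 1197, 1892, 2207 and 1125 in WT sham hearts. These groups overlapped and Nppb was not called (-0.81 ± 0.49, limma adjusted p = 0.308). The value rests on the heart at 322, OE sham replicate 2, and was -0.081 without it.

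Npr3 was lower with Nppa, at 331, 307 and 381 normalized counts in OE sham hearts at T3, against 598, 687, 689 and 453 in WT sham hearts. The groups did not overlap, and Npr3 fell by 0.82 (SE 0.24), to 0.566 of the WT level (limma adjusted p = 0.0268). That call was lost on leaving out any OE sham heart or WT sham replicate 2 or 3 (limma adjusted p up to 0.0838) and with scaling by library totals (limma adjusted p = 0.0548). Npr1 and Npr2 were at -0.14 ± 0.09 and 0.15 ± 0.07 (limma adjusted p = 0.338 and 0.163), and Npr2 was called with scaling by library totals (0.25, limma adjusted p = 0.0257). The 3 members called here stood beside 13.1% of genes.

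Markers of atrial muscle were also low in the OE sham hearts of T3. Of 8 such markers 5 fell in OE against WT and none rose (Nr2f2, Myl7, Kcnj3, Sln and Myl4). The summed level of the list was 17524 to 18017 in OE, against 25864 to 47886 in WT, and Pam, which is expressed well beyond the atria, made up 76.3% to 84.8% of the OE sums. The atrial light chain gene Myl7 had 325 to 748 normalized counts in OE, against 2452 to 5954 in WT. Sln, the atrial calcium pump regulator, had 102 to 210, against 726 to 1688. Bmp10, a growth factor gene of atrial muscle, was near 0 in OE, at 5.60 to 44.8, against 1386 to 3422 in WT, although it varied widely in other groups too, from 1.14 to 3629 in WT sham hearts at T2. Adipocyte markers had a median log2 fold change of -3.04 in the same comparison, with 1 of 5 called. Their summed level moved less, at 3277 to 4124 in OE, against 4547 to 5568 in WT. Endocardial markers summed to 1649 to 2106 in OE, against 2209 to 3194 in WT, and endothelial markers to 12829 to 13115, against 14226 to 15102. Sums of mural cell, fibroblast and macrophage markers were also lower in OE without overlap, while those of ventricular and epicardial markers overlapped. The part of these shifts in the changes of Nppa and Npr3 was not tested beyond the ratio of Nppa to Myl7 given next.

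Set against Myl7 in the same heart, Nppa in OE sham hearts at T3 was at 0.812 of the WT level. The difference of the log2 ratio was -0.30, the groups overlapped, and the exact two-sided permutation test gave p = 0.171 (adjusted over 12 comparisons, p = 0.228). At T1 the same ratio was 18.7-fold higher in OE sham hearts and 11.3-fold higher in OE MI hearts than in WT, without overlap. At T2 it was 2.23-fold higher in OE sham hearts, again without overlap. Each of these 3 tests gave p = 0.0286, the smallest that 4 against 4 hearts can give with an exact two-sided permutation test, and 0.0858 after adjustment over 12 comparisons. At T1 Myl7 was itself lower in OE hearts, at 1512 to 2359 in OE sham, against 3188 to 5464 in WT sham. Other atrial genes did not all move as Myl7 did. Sln had 1012 to 1296 in OE sham, against 1086 to 2228 in WT sham. Myl4 had 6926 to 12393, against 5058 to 10581, and Bmp10 1803 to 4198, against 19.0 to 4089. Ratios of Nppa to these genes were not tested. Over the 29 libraries of T2 and T3, the deviations of Nppa from its group means on the log2 scale went with those of Myl7 (Pearson r = 0.852) and of Npr3 (r = 0.823), while for Nppb and Myl7 r was 0.00332. The libraries come from whole hearts at like depth, and these values are descriptions without a test.

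**Figure D3:**
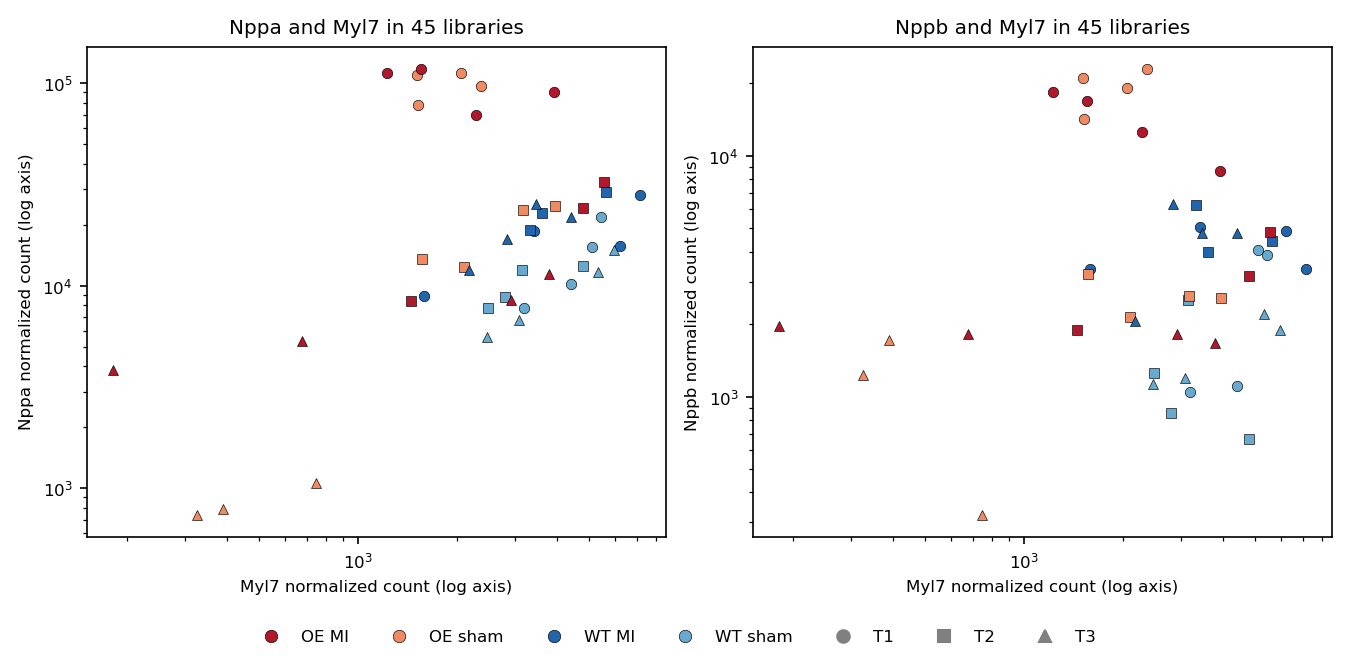
Nppa (left) and Nppb (right) against the atrial light chain gene Myl7, as normalized counts per library on log axes, with colours for genotype and injury and symbols for time. The 3 OE sham T3 hearts are low in both Nppa (738 to 1055) and Myl7 (325 to 748), the 8 OE T1 hearts lie above the WT T1 hearts in Nppa at Myl7 levels of 1229 to 3923, and in Nppb the OE sham T3 hearts spread from 322 to 1717. Levels of T1 and of later times come from separate tables.

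In injured hearts at T3, Nppa had 5347, 3839, 11472 and 8457 normalized counts in OE, against 25249, 11973, 21943 and 16935 in WT (replicates 1 to 4). The groups did not overlap, with 11472 as the highest OE and 11973 as the lowest WT heart, and the log2 fold change of -1.45 ± 0.41 missed the threshold (limma adjusted p = 0.0516). Leaving out WT MI replicate 2 or OE MI replicate 3 made it a call (limma adjusted p = 0.0352 and 0.0353). Nppb had 1825, 1965, 1669 and 1827 in OE, against 4784, 2054, 4771 and 6334 in WT, also without overlap (-1.19 ± 0.46, limma adjusted p = 0.171). The authors' deposited table gives -1.39 for Nppa (adjusted p = 0.0125) and -1.3 for Nppb (adjusted p = 0.0489). Only Corin was called here by limma, 1 member beside 3.28% of genes. Myl7 was also scattered in these OE hearts, at 676 and 182 in replicates 1 and 2 and at 3779 and 2910 in replicates 3 and 4. Relative to Myl7 the mean difference of Nppa was 0.07 (exact two-sided permutation test, p = 0.971). That mean joins values on both sides of the WT range. The log2 ratio was 2.98 and 4.39 in OE replicates 1 and 2 and 1.60 and 1.54 in replicates 3 and 4. In WT it ran from 2.31 to 2.86.

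After injury in WT hearts, Nppb was the peptide gene that was called. At T2 Nppb had 6228, 4412 and 3970 normalized counts in WT MI hearts, against 2522, 857, 665 and 1257 in WT sham hearts. All injured hearts stood above all sham hearts, and Nppb rose by 2.04 ± 0.49, or 4.12-fold (limma adjusted p = 0.00526). Nppa had 18864, 29065 and 22980 in WT MI, against 11894, 8787, 12484 and 7762 in WT sham. These groups did not overlap either, but the log2 fold change of 1.21 ± 0.44 just missed the threshold (limma adjusted p = 0.0522). It passed with edgeR (adjusted p = 0.0456) and DESeq2 (adjusted p = 0.0174), and the authors' deposited table gives 1.21 with an adjusted p of 0.0218. Corin fell by 0.29 (SE 0.10, limma adjusted p = 0.04), a call lost on leaving out WT MI replicate 2 or 3 or WT sham replicate 2 or 4 (limma adjusted p up to 0.226), with only the groups compared (limma adjusted p = 0.111) and with scaling by library totals (limma adjusted p = 0.163). These 2 calls stood beside 21.8% of genes. In the same comparison 8 of 8 fibroblast markers rose, summing to 45752 to 62515 in WT MI, against 20547 to 22184 in WT sham, and 5 of 8 cardiomyocyte markers fell. Their part in the changes of Nppb and Corin was not tested.

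At T3 Nppb had 4784, 2054, 4771 and 6334 normalized counts in WT MI hearts, against 1197, 1892, 2207 and 1125 in WT sham hearts. A single injured heart, replicate 2 at 2054, lay inside the sham range, and Nppb rose by 1.43 ± 0.46 (limma adjusted p = 0.039). Leaving out any library but WT sham replicate 3 or WT MI replicate 2 ended that call (limma adjusted p up to 0.112). Nppa was at 1.02 ± 0.41 (limma adjusted p = 0.0959). Relative to Myl7, Nppa was 2.56-fold higher in WT MI than in WT sham hearts at T3, without overlap (exact two-sided permutation test, p = 0.0286, adjusted p = 0.0858). Corin had 3348, 3878, 3314 and 3772 in WT MI, against 5330, 5532, 5171 and 5291 in WT sham, and fell by 0.58 (SE 0.09, limma adjusted p = 0.000394), with and without any library. These 2 calls stood beside 14.9% of genes, and 4 of 8 cardiomyocyte markers fell in the same comparison while 5 of 8 fibroblast and 8 of 8 macrophage markers rose. Their part in these 2 calls was not tested.

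At T1, MI against sham in WT hearts gave no call among the 6 genes, beside 5.8% of all genes. By limma 1 member had an unadjusted p under 0.05, and edgeR's quasi-likelihood test and DESeq2 called 0. The 5.8% is by limma's adjusted p, and no share of all genes is given for the others. The member was Nppb, with 3393, 3395, 4886 and 5044 normalized counts in WT MI, against 1102, 1040, 4062 and 3865 in WT sham (0.99 ± 0.41, limma adjusted p = 0.156). Npr1 had 638 to 687 in WT MI, against 535 to 598 in WT sham; these groups did not overlap and the log2 fold change was 0.23 ± 0.12 (limma adjusted p = 0.24).

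In OE hearts the injury gave no call among the 6 genes at T1 or T2. In these comparisons 0.0065% and 0.0258% of all genes were called by limma's adjusted p. No member had an unadjusted p under 0.05 by limma, and edgeR and DESeq2 called 0 members. At T2 Nppb had 4839, 1894 and 3173 normalized counts in OE MI hearts, against 2559, 3229, 2606 and 2151 in OE sham hearts, with a 95% interval of the log2 fold change from -0.79 to 1.26. Nppa was at 0.09 ± 0.44. The injury effect in OE minus that in WT was -1.81 ± 0.70 for Nppb and -1.12 ± 0.62 for Nppa at T2, neither of them called (limma adjusted p = 0.137 and 0.314).

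At T3 Nppa was higher after injury in OE hearts, with 5347, 3839, 11472 and 8457 normalized counts in OE MI, against 791, 1055 and 738 in OE sham. No injured heart came near the sham range, and the rise was 2.97 ± 0.44, or 7.84-fold (limma adjusted p = 0.00026). Relative to Myl7 it was 3.32-fold, without overlap (exact two-sided permutation test, p = 0.0571, the smallest that 4 against 3 hearts can give). After adjustment over 12 comparisons that p was 0.0979. The log2 ratio was 2.98 and 4.39 in OE MI replicates 1 and 2, whose Myl7 was low, and 1.60 and 1.54 in replicates 3 and 4. In OE sham it ran from 0.50 to 1.18. Among the 8 atrial markers 1 rose in this comparison, Nr2f2, and the list summed to 16561 to 36308 in OE MI, against 17524 to 18017 in OE sham. Of other lists, 4 of 8 cardiomyocyte markers fell, and 8 of 8 macrophage, 7 of 8 fibroblast and 4 of 5 adipocyte markers rose. Their part in the changes of Nppa and Corin was not tested. Nppb was at 1.05 ± 0.49 (limma adjusted p = 0.144). Corin had 2550, 2665, 2446 and 2351 in OE MI, against 3126, 3274 and 2930 in OE sham, without overlap, and fell by 0.31 (SE 0.10, limma adjusted p = 0.0329). That call held with 1 of 7 libraries left out, OE MI replicate 2, was lost with any other (limma adjusted p up to 0.108) and was lost with scaling by library totals (limma adjusted p = 0.23). The 2 members called stood beside 19.1% of genes.

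The difference between genotypes in the injury effect at T3 was 1.95 ± 0.60 for Nppa, with a 95% interval from 0.71 to 3.20, and was not called by limma (adjusted p = 0.218). No member was called in the interaction of overexpression and injury at T1, T2 or T3 by limma, where 0.0911%, 4.94% and 0.00644% of genes were called. An unadjusted p under 0.05 was found for 1, 2 and 1 member, with no share of all genes given at that threshold. DESeq2 called 0, 0 and 1 member, Nppa, and edgeR called 0 at each time.

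Between T2 and T3, which share a table, 3 of the 6 genes were called in OE sham hearts, all lower at T3, beside 30.9% of genes. Nppa was at 791, 1055 and 738 normalized counts at T3, against 24650, 13572, 23588 and 12401 at T2, a log2 fold change of -4.38 ± 0.44 (limma adjusted p = 6.6e-07). Nppb was at 1717, 322 and 1234 at T3, against 2559, 3229, 2606 and 2151 at T2 (-1.57 ± 0.49, limma adjusted p = 0.0201). Npr3 was at 331, 307 and 381 at T3, against 871, 521, 747 and 609 at T2 (-0.99 ± 0.24, limma adjusted p = 0.00341). In none of these 3 genes did the times overlap. Npr1 did not overlap either, at 441 to 461 at T3, against 492 to 550 at T2, and was not called (limma adjusted p = 0.133). The share of all genes without overlap is not given. The call of Nppb was lost with edgeR, with only the groups compared, and without replicate 2 of either time. With scaling by library totals 5 members were called, and the share of all genes called with that scaling is not given. In the same comparison 5 of 8 atrial markers fell, summing to 17524 to 18017 at T3, against 27218 to 41444 at T2. Of 8 fibroblast markers 6 fell, summing to 19348 to 21286 at T3, against 39615 to 40717 at T2, and the part of these lists was not tested. In OE MI, WT sham and WT MI hearts no member was called between T3 and T2 by limma, with 3, 0 and 2 members at an unadjusted p under 0.05, 0 by edgeR and 2, 0 and 0 by DESeq2. The background there, by limma's adjusted p alone, was 0.283%, 0.341% and 0.00644% of genes. No such share is given for the unadjusted p or the other tools, so those counts stand here without a background and are not read as a result. The OE effect in sham hearts at T3 minus that at T2 was called for Nppa, at -4.22 ± 0.60 (limma adjusted p = 0.000332, 1 member beside 12.3% of genes), and was -1.97 ± 0.67 for Nppb (limma adjusted p = 0.0581). In MI hearts no gene of any kind was called for that difference by limma (0% of genes), edgeR called 0 and DESeq2 2 genes, none of them a member, and no member had an unadjusted p under 0.05.

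Ordered by mean level within T2 and T3, Nppa ran from WT MI T2 (23640 ± 5132) through OE MI T2, WT MI T3, OE sham T2, WT sham T2, WT sham T3 and OE MI T3 to OE sham T3 (861 ± 170). Each neighbour overlapped the next except the last, OE sham T3. In the libraries of T2 and T3, Npr1 ran from 369 to 577 normalized counts, Npr2 from 990 to 1298 and Npr3 from 307 to 1102. In those of T1, Npr1 ran from 385 to 687, Npr2 from 1040 to 1372 and Npr3 from 317 to 919. Neither Npr1 nor Npr2 was called in any of the 21 comparisons with the deposited scaling and all libraries and groups in the fit.

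The balance of the peptides and of the receptors was followed by the log2 ratio of Nppb over Nppa and of Npr3 over Npr1 in each heart, OE against WT, in 12 comparisons with exact two-sided permutation tests. The ratio of Nppb over Nppa was 6.07-fold higher in OE than in WT sham hearts at T3, and Npr3 over Npr1 was at 0.625 of its WT level. The log2 ratio of Nppb over Nppa was 2.07 to 3.48 higher with 1 library left out, the highest value being without OE sham replicate 2. In both the groups did not overlap and p was 0.0571, the smallest that 3 against 4 hearts can give (adjusted p = 0.343). In the other 10 comparisons the groups overlapped, those at T1 included.

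Genes of the pathway around the 6 members were read from a list of 28, of which 26 were tested: convertases, peptide-degrading enzymes, guanylyl cyclases, nitric oxide synthases, phosphodiesterases and targets of cyclic GMP. In OE against WT sham at T1, 5 rose and 7 fell, beside 47.3% of all genes called, and the list's median log2 fold change was -0.04, against 0.01 for all genes. The share of the list called was close to that background. Pln, which encodes phospholamban, the brake on the calcium pump of the sarcoplasmic reticulum, fell by 1.59 (SE 0.16, limma adjusted p = 1.92e-06). Mme, the gene of neprilysin, which degrades natriuretic peptides, fell by 1.85 (SE 0.38, limma adjusted p = 0.00104). Pde3a, a phosphodiesterase gene, fell by 0.70 and Irag1 (Mrvi1), a substrate of the cyclic GMP kinase, by 0.52, while Vasp, another kinase substrate that binds actin filaments, rose by 0.91. In MI hearts at T1, 1 rose (Vasp, 0.56) and 6 fell, beside 29.9% of all genes called. Among those that fell were Pln by 1.31, Mme by 1.45 and Pde3a by 0.46.

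Pcsk6, whose product activates corin, was lower together with Corin at T1 and T2, an observation chosen after its values were seen. It fell in OE sham hearts by 1.01 (SE 0.24) at T1 and by 0.63 (SE 0.09) at T2, and in OE MI hearts by 0.83 and 0.68 (limma adjusted p = 0.00291, 9.03e-06, 0.0165 and 0.000609). At T3 it was at -0.07 ± 0.10 in sham and -0.20 ± 0.09 in MI hearts (limma adjusted p = 0.694 and 0.24), while Corin was still called there. Furin, the gene of a general convertase, was called in OE against WT only in sham hearts at T2, at -0.24 ± 0.06 (limma adjusted p = 0.00537).

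At T2, 5 of the 26 rose and 6 fell in OE against WT sham, beside 25.4% of genes, led by Pcsk6, Pln (-0.52), Rgs2 (-0.65), Gucy1b1 (0.34) and Furin. Rgs2 encodes a brake on G protein signalling that the cyclic GMP kinase activates, and Gucy1b1 a subunit of the nitric oxide receptor. At T3, 2 rose and 6 fell, beside 13.1% of genes, led by Pde1c (-0.64), Pln (-0.44), Irag1 (-0.58), Rgs2 (-0.68) and Nos1 (2.45 ± 0.68, limma adjusted p = 0.0179). In MI hearts a single gene of the list was called at T2 (Pcsk6), beside 1.56% of genes. A single one was called at T3 (Pde1c, -0.39), beside 3.28% of genes. After injury in WT hearts, 7 rose and 2 fell at T2, beside 21.8% of genes. They were led by the phosphodiesterase gene Pde1a (0.68), Gucy1a1 (0.56), Pln (-0.49), Gucy1b1 (0.42) and the potassium channel gene Kcnma1 (1.81). Pde1a rose in WT MI hearts at all 3 times (0.64, 0.68 and 0.41) and in OE MI hearts at T3 (0.70). In OE hearts the injury called none of the list at T1, Nos2 at T2 (-0.71) and 4 at T3, where Pde1a and Gucy1a1 rose and Ide and Furin fell. The shares of all genes called there were 0.0065%, 0.0258% and 19.1%.

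**Figure D4:**
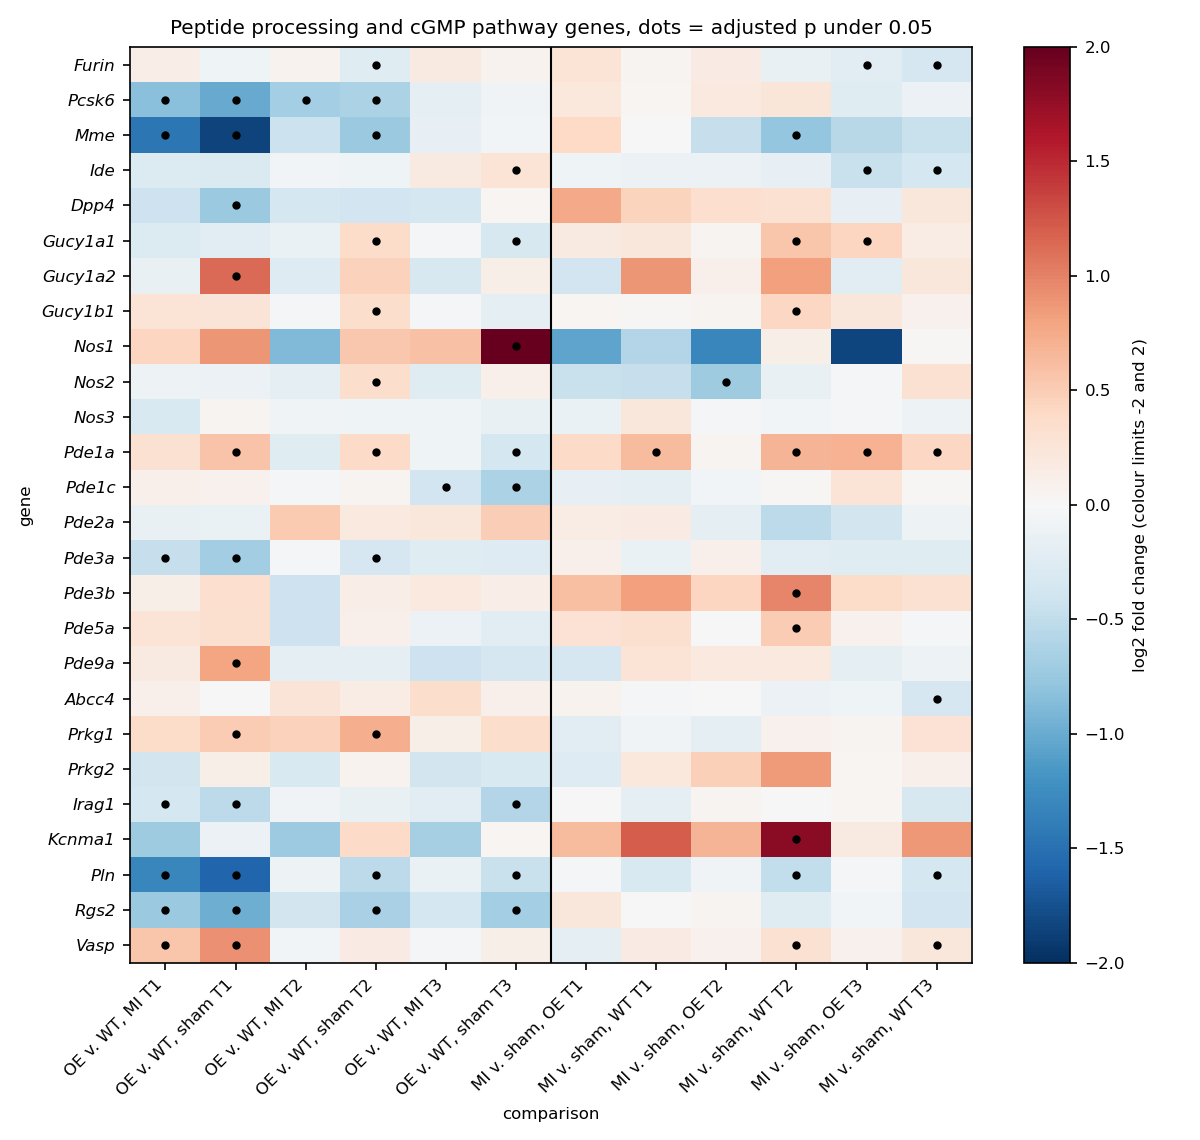
Log2 fold changes (colour, limited to -2 and 2) of the 26 tested genes of peptide processing and of the cyclic GMP pathway (rows) in 6 comparisons of OE against WT and 6 of MI against sham (columns); dots mark calls at an adjusted p under 0.05. Pln is marked on the lower side in OE sham hearts at all 3 times, and no gene is marked for MI against sham in OE at T1.

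Transcription factor genes known to act on Nppa and Nppb were read from a list of 34, of which 33 were tested. In OE against WT sham at T1, 11 rose and 12 fell beside 47.3% of genes, led by Hand2 (-0.92), Egr1 (3.47), Mef2d (-0.38), Nfatc4 (0.75) and Fosl1 (1.23). At T2, 4 rose and 1 fell beside 25.4% of genes, and at T3, 3 rose and 1 fell beside 13.1%. Hand2, the gene of a factor of ventricular development, was lower at all 3 times (-0.92, -0.39 and -0.41). In WT hearts after MI, Egr1, an immediate early gene, rose at T2 and T3 (1.01 and 1.02).

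Of 24 stress and fetal heart genes, a list that these data had already shown to move, 18 rose and 1 fell in OE against WT sham at T1, beside 47.3% of genes. At T3, 2 of the 23 tested rose and 4 fell, beside 13.1% of genes. After injury at T3, 7 rose and 2 fell in OE, beside 19.1% of genes, and 11 rose and none fell in WT, beside 14.9%.

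The genes beside Nppa and Nppb on chromosome 4 did not share the size of their changes. In OE against WT sham at T1, Plod1 (0.46) and 2510039O18Rik (0.23) rose and Mfn2 (-0.80) fell. Clcn6, whose gap to Nppa is 2179 bases, was not called there. At T3, where Nppa was at -3.41, Agtrap was higher in OE (0.44) and Mfn2 lower (-0.32).

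Among 11021 other genes, the profile most like that of Nppa, by the smaller of the Pearson correlations over the 16 libraries of T1 and the 29 of T2 and T3, was that of Gpx3 (0.948 and 0.859). Ctgf (Ccn2, 0.832 and 0.845) and Ikbip (0.884 and 0.83) followed. For Nppb these were Arf4 (0.91 and 0.877), Actn4 (0.854 and 0.869) and Ankrd1 (0.871 and 0.852), and for Corin Vldlr (0.951 and 0.934), 2310061I04Rik (0.943 and 0.897) and Gpcpd1 (0.93 and 0.896). The receptors had less close neighbours, with Podn (0.749 and 0.69) for Npr3, Msi2 (0.798 and 0.669) for Npr2 and Gstt1 (0.713 and 0.618) for Npr1. Much of these correlations is between groups: with group means removed, r over 45 libraries was 0.79 for Nppa with Gpx3, 0.276 for Nppa with Ctgf, 0.596 for Nppb with Arf4 and 0.573 for Corin with Vldlr. The libraries share groups and depth, and the values are descriptions.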

How the data were processed

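PolyA RNA of PBS-perfused, frozen and powdered hearts was sequenced, per the labels. The authors' tables hold 1 signal value per gene and library, a normalized read count (reads divided by 1 factor per library), beside the authors' log2 fold changes and adjusted p-values of their own comparisons. The tools listed are cutadapt, STAR, HTSeq and DESeq2, and the build GRCm38, per the submitters' processing notes.

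Values were whole multiples of the worth of 1 read (100% within 0.1 reads; in 2 libraries of T3, the third WT sham and the second WT MI one, that worth was too close to 1 to tell), so reads were recovered and tested as an alternative with edgeR 4.0.16 and DESeq2 1.42.0. The main test was limma 3.58.1 (R 4.3.3; trend, robust) on log2(normalized count + 1), fitted over all groups of a table. Genes needed a value of at least 10 in as many libraries as the smallest group has, and p-values were adjusted (Benjamini-Hochberg) over all genes tested. Ratios were tested by exact permutation with SciPy 1.17.1. The alternatives were scaling by library totals or TMM, pseudocounts, filters, a replicate block, the groups compared alone, a sex term and each library left out. The test was checked on simulated data. Named list genes are the up to 5 called genes of smallest p in a list. Members and lists were chosen with earlier results of these data known. The result of 1 listed gene is not reported here.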

Additional observations from a re-analysis of the deposited data

Results flagged for a closer look

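Npr3 in WT MI replicate 2 at T1 stood apart from its group, at 918.9 normalized counts, with a gap to the next heart of 0.928 of the group's range. The same heart had the highest Nppa (27991) and Myl7 (7138) of its group. In all, 54 groups of 4 values were examined in this way, and chance marks about 1 in 20 of such groups.

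The OE effect on Nppa in sham hearts differed between T3 and T2, with a difference of -4.22 on the log2 scale (limma adjusted p = 0.000332). The OE hearts were lower than WT at T3 without overlap, and overlapped WT at T2.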

How the results depend on the processing

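Log2 fold changes and counts are from limma unless named. The share of all genes called under each alternative is not given, so the counts of members below stand without a background. With scaling by library totals, 3 members were called in OE against WT, sham T2 (1 as deposited), 1 in MI against sham, OE T3 (2) and 5 in T3 against T2, OE sham (3), with smaller moves to 4 in OE against WT, MI T1 (3) and 3 in MI against sham, WT T3 (2). DESeq2 called 3 in OE against WT, MI T3 (limma 1), 1 in the interaction at T3 (0), 2 in T3 against T2, OE MI (0) and 2 in the sham difference T3 minus T2 (1). A filter at 50 gave 2 and 2 in OE against WT, MI T3 and in that sham difference. Fitting only the groups compared gave 0 in OE against WT, MI T2 (1), 1 in MI against sham, WT T3 (2) and 2 in that sham difference. The replicate numbers did not pair the samples (correlations of same-numbered deviations ran from -0.431 to 0.286), and with the replicate block 0 members were called in OE against WT, MI T2 (Corin -0.42, adjusted p = 0.063). Directions turned with library totals, in no called result: 0.025 for Npr1 (OE against WT, sham T1), 0.18 for Npr2 (OE against WT, sham T1), 0.030 for Nppa (MI against sham, OE T1), 0.054 for Npr2 (MI against sham, WT T2), 3.6e-05 for Npr1 (OE against WT, MI T3), 0.053 for Npr1 (MI against sham, WT T3), 0.16 for Npr2 (MI against sham, WT T3), 0.096 for Npr1 (MI against sham, OE T3), 0.14 for Npr2 (MI against sham, OE T3). Directions turned with the sex term, in no called result: -0.045 for Npr3 (MI against sham, WT T1), -0.067 for Npr3 (OE against WT, sham T2), -0.0079 for Corin (MI against sham, OE T2), -0.0087 for Npr3 (MI against sham, WT T3). Directions turned with the ratio of Nppa over Myl7, in no called result: -0.33 for Nppa (MI against sham, OE T2), 0.073 for Nppa (OE against WT, MI T3).

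Leaving out 1 library at a time gave the ranges below for counts that changed and for uncalled directions that turned; the cause was not tested. Npr3 ran over -0.18 to 0.12 in MI against sham, WT T1, -0.17 to 0.31 in MI against sham, OE T1, -0.12 to 0.13 in OE against WT, sham T2, -0.053 to 0.18 in MI against sham, WT T2, -0.083 to 0.19 in MI against sham, WT T3. Corin ran over -0.23 to 0.0011 in MI against sham, WT T1, -0.071 to 0.19 in MI against sham, OE T2. Nppa ran over -0.15 to 0.11 in MI against sham, OE T1, -0.30 to 0.67 in MI against sham, OE T2, -0.70 to 0.27 in OE against WT, MI T2. Npr2 ran over -0.055 to 0.11 in MI against sham, OE T1, -0.015 to 0.11 in OE against WT, MI T1, -0.058 to 0.023 in MI against sham, WT T3, -0.078 to 0.042 in MI against sham, OE T3. The number of members called was 1 to 2 in OE against WT, sham T2, 1 to 2 in OE against WT, T3 minus T2, sham, 1 to 2 in MI against sham, WT T2, 0 to 1 in OE against WT, MI T2, 0 to 1 in OE by MI interaction, T2, 0 to 2 in T3 against T2, OE MI, 1 to 2 in MI against sham, WT T3, 1 to 2 in OE against WT, MI T3, 1 to 2 in MI against sham, OE T3, 3 to 4 in OE against WT, sham T1, 3 to 4 in OE against WT, MI T1, 2 to 3 in OE against WT, sham T3, 2 to 3 in T3 against T2, OE sham. The log2 ratio of Nppb over Nppa, OE against WT, ran over -0.56 to 0.012 in MI T2, -0.040 to 0.56 in MI T3 and -0.021 to 0.64 in sham T2, and that of Npr3 over Npr1 over -0.32 to 0.14 in MI T1 and -0.11 to 0.090 in sham T2. Npr1 ran over -0.034 to 0.067 in OE against WT, sham T2, -0.12 to 0.0070 in MI against sham, OE T3. Nppb ran over -0.090 to 0.59 in MI against sham, OE T2.

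The sex term and the ratio over Myl7 were added after seeing the data. Normalized counts, not raw counts, were deposited, and 3 or 4 hearts a group limit what can be called.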
